A study of Homo sapiens with 6 samples.

Results

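The genes described here are SRF, the transcription factor serum response factor, and 46 genes for actin, its binding proteins and its filament machinery, 47 of the 58735 genes in the deposited table. They were taken from that table by symbol: SRF, 3 actins, 13 crosslinkers and focal contact proteins, 4 tropomyosins, 5 myosin II chains, 6 transgelins, calponins and caldesmon, 6 proteins of actin monomer binding and filament turnover, 8 subunits of the ARP2/3 complex, and TUFT1 (tuftelin). Polyadenylated RNA was sequenced from A375, an established human melanoma cell line with a mutant BRAF kinase, in 3 libraries of cells given the solvent DMSO and 3 of cells given CuB, which the series title spells out as cucurbitacin B. Both groups were collected at 6 h. The protocol states 0.2 µM CuB and the library names state 100 nM, so the dose is uncertain. All 6 libraries come from 1 cell line, and no label says whether each replicate was its own culture. The p-values therefore reflect the scatter among these libraries only, which may be technical.

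SRF binds DNA as a dimer at the CArG box, a short stretch of A and T between CC and GG. It works with 2 families of partner. The MRTF cofactors are held by free actin monomers and are released when monomers are built into filaments, which links the state of the cytoskeleton to the transcription of cytoskeletal genes. The TCF partners (ELK1, ELK3 and ELK4) answer to ERK signalling and serve immediate early genes such as FOS and EGR1. Actin filaments are branched by ARP2/3, coated by tropomyosins, crosslinked by actinins and filamins, tied to integrins at focal contacts by talin and vinculin, and pulled by myosin II. Cucurbitacins are known to disturb actin filaments in cultured cells. Filaments, proteins and binding of SRF were not measured here.

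Values are FPKM, fragments scaled by gene length and by library. The length counts all annotated exons of a gene and can exceed that of its transcripts. Levels compared between genes are therefore rough. Each library held between 14845976 and 16137093 fragments assigned to genes. Within a group, every pair of replicates differed beyond counting noise: chi-square divided by its degrees of freedom was 2.93 to 27.4. DMSO replicate 2 stood apart from the other DMSO libraries along gene GC content: its deviation from the group mean had a Spearman correlation with GC of 0.79 across genes, against -0.55 and -0.71 for replicates 1 and 3. In CuB the same correlation was -0.68, 0.26 and 0.66. These are descriptions across genes, which are not independent. DMSO replicate 2 gave the highest DMSO value of 22 members and the lowest of 20, of the 44 members tested. The 9 melanoma markers summed to 252 to 347 FPKM in DMSO and 226 to 293 in CuB, and 3 of the 5 tested were called lower: S100B (26.4 FPKM in DMSO and 6.64 in CuB, log2 difference -1.84), S100A1 (4.80 and 1.91, -0.98) and PRAME (54.9 and 30.1, -0.85). SOX10 (198 and 218) and MITF (3.96 and 4.42) were not called, and MLANA, PMEL, TYR and DCT were near 0 in every library. Smooth muscle markers, the lineage with the strongest expression of several of these genes, summed to 0.773 to 1.04 FPKM in DMSO and 0.551 to 0.757 in CuB, with MYOCD at 0 in all 6 libraries. The fibroblast markers summed to 3.80 to 4.31 FPKM in DMSO and 1.76 to 2.02 in CuB, with PDGFRB, the 1 tested, called lower (-0.74). Keratinocyte and epithelium markers summed to 0.863 to 1.31 in DMSO and 1.55 to 2.72 in CuB, with the 1 tested called higher (0.61). Endothelial markers summed to 0.479 to 0.548 in DMSO and 0.200 to 0.372 in CuB, and leukocyte markers to 0.138 to 0.415 and 0 to 0.248. What part these lists have in the results was not tested.

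Most of the measured members were higher with CuB. Of the 47 genes, 44 reached a mean of 1 FPKM over the 6 libraries and were tested with limma on log2(FPKM + 1), with Benjamini-Hochberg adjustment over 13273 genes. At an adjusted p under 0.05, the threshold for a call, 28 of the 44 were higher with CuB (63.6%) and 3 were lower (6.82%), whereas 38.6% of all tested genes were called, 22.9% higher and 15.6% lower. ACTA2, 1 of the 3 lower, reached the filter only through DMSO and could count only as lower. On the log2(FPKM + 1) scale of the fit, at least a 2-fold rise was called for 16 members and a fall of that size for 0. As ratios of mean FPKM, the falls of ACTA2 and FHL1 exceeded 2-fold. Among all tested genes these shares were 4.87% and 2.37%. The 3 CuB values lay above the 3 DMSO values for 29 members and below them for 3. Over all tested genes, 51.5% had groups that did not overlap, 29.8% with CuB above and 21.7% with CuB below. The median log2 difference of the 44 members was 0.52, from -0.90 to 2.51, beside a median of 0.05 over all tested genes. The direction of the background depends on the scaling: with libraries set to equal fragment totals, 15.2% of all genes were called higher and 23.6% lower, and the median of all genes moved by -0.14 to -0.08. Under that scaling 24 members were called higher and 3 lower. Their median was then 0.36, which is 0.44 above that of all genes, beside 0.47 above it as deposited. FPKM are shares of the RNA in a bulk culture, so fewer cells that express a gene and less of its RNA per cell cannot be told apart.

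**Figure D1:**
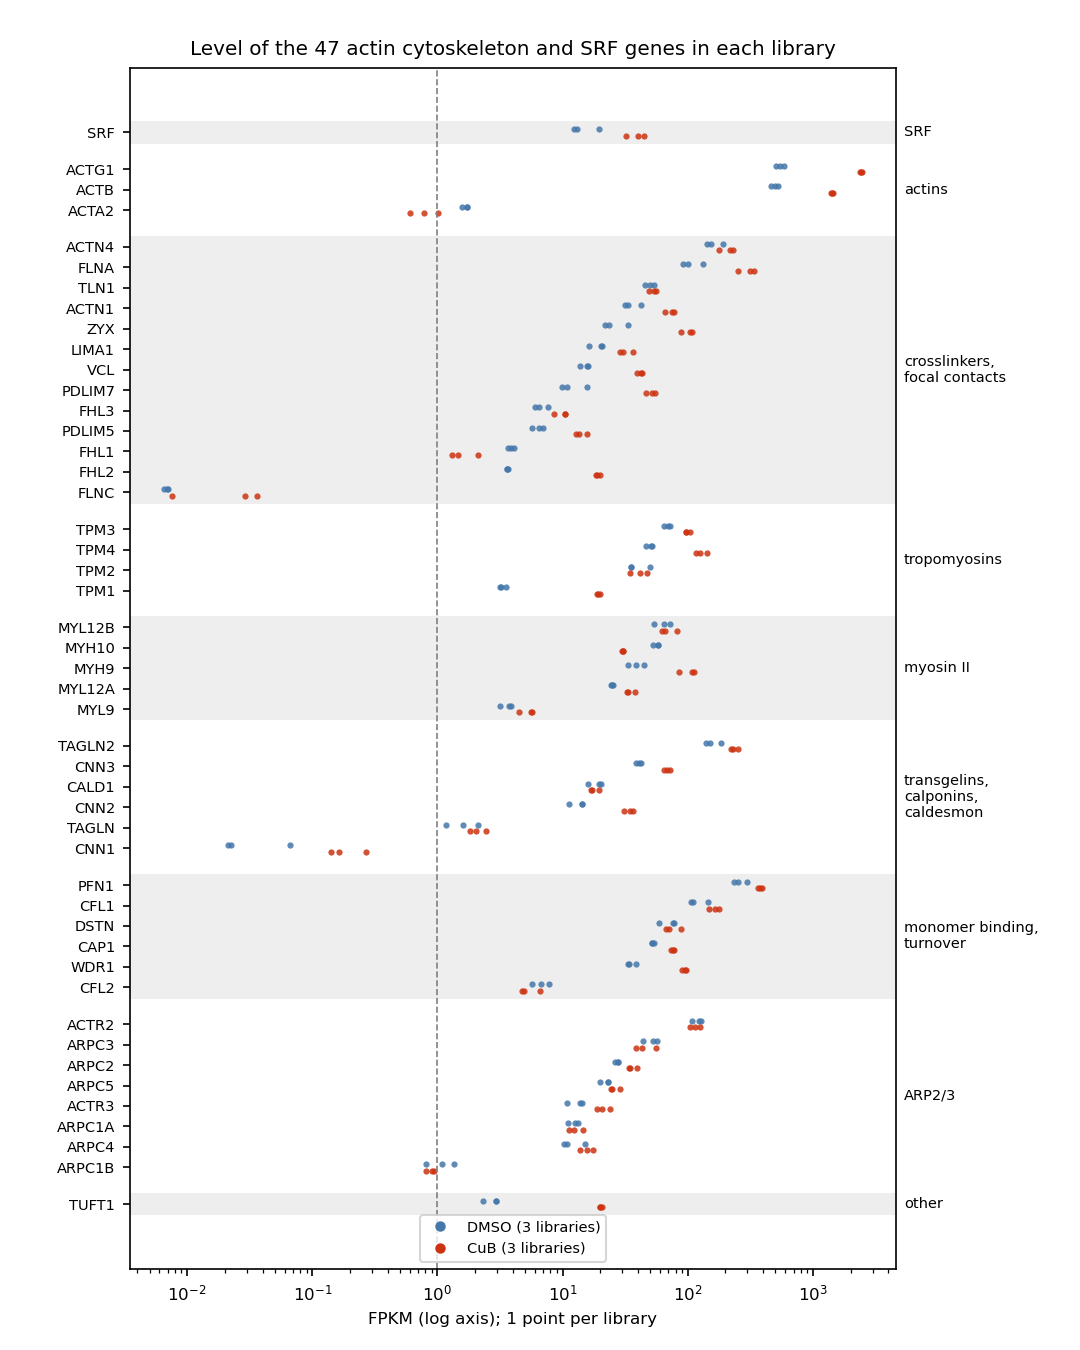
FPKM of the 47 members in each library on a log axis, with 1 point per DMSO or CuB library, the genes grouped by role and a dashed line at 1 FPKM. The CuB points lie to the right of the DMSO points for 29 of the 44 tested members and to the left for ACTA2, FHL1 and MYH10.

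**Figure D2:**
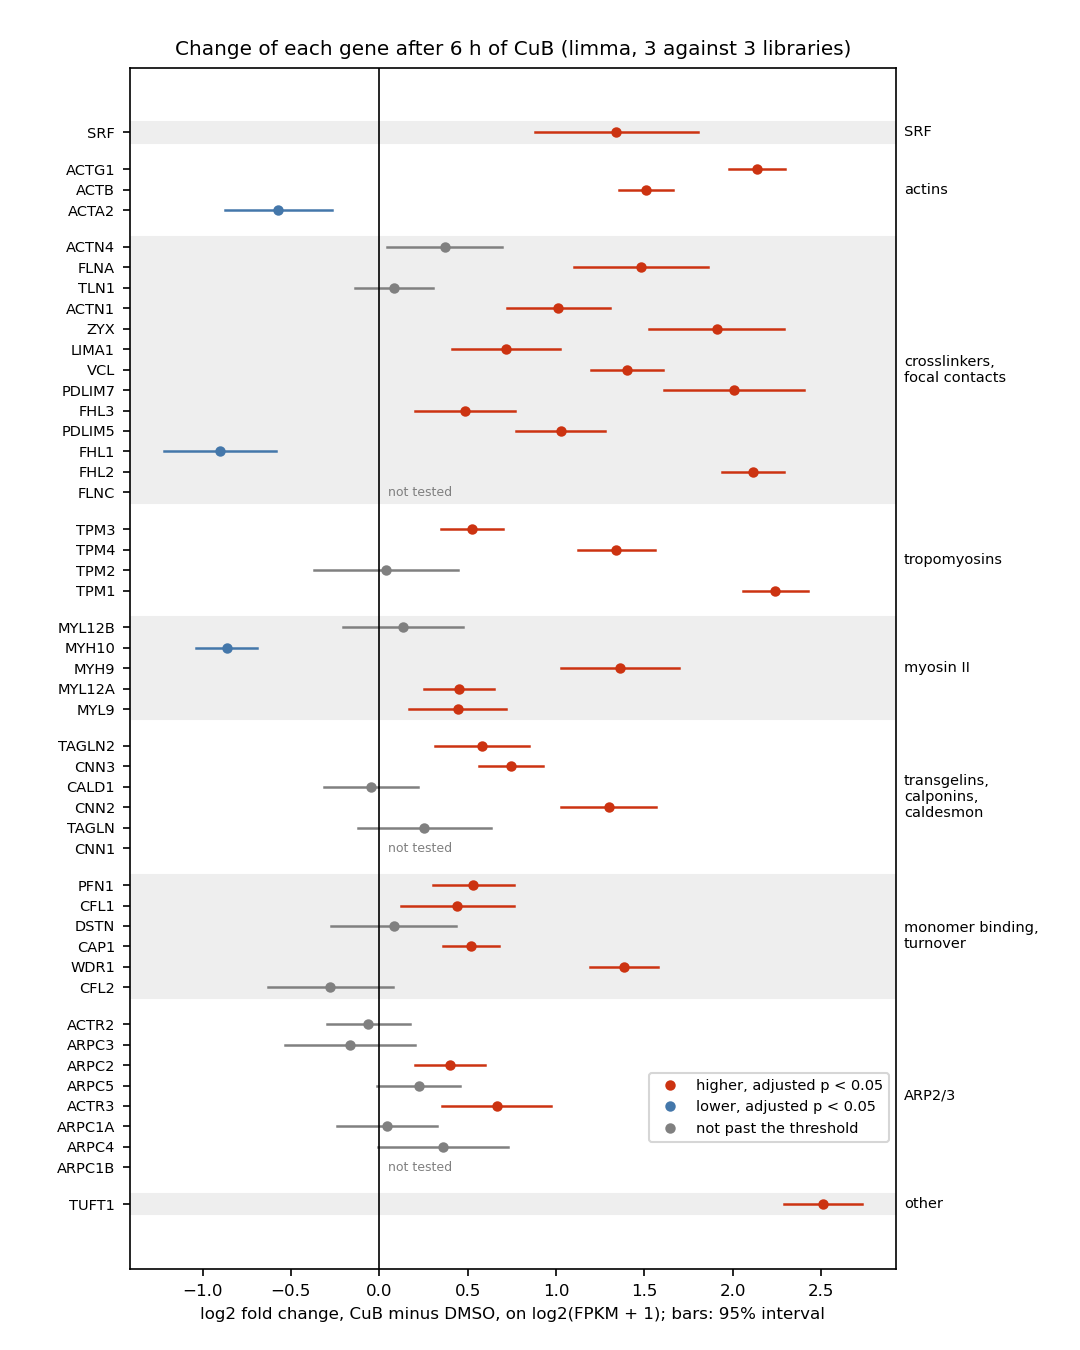
Fitted log2 difference, CuB minus DMSO, of each tested member on the log2(FPKM + 1) scale with its 95% interval, grouped by role. TUFT1 lies highest at 2.51 and FHL1 lowest at -0.90, and the 7 ARP2/3 subunits lie between -0.17 and 0.66.

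The CArG box was looked for in the promoter windows that RefSeq gives for GRCh38.p14, from 250 bases before a start site to 50 after it. Windows were found for 43 of the 47 genes, 84 in all. ACTB, ARPC1B, MYL9 and TAGLN had no matching window. The motif is CC, then 6 bases that are each A or T, then GG, and reads the same on both strands. It was present in 10 of the 84 windows and in 8 of the 43 genes (18.6%), beside 454 of all 35116 windows (1.29%) and 1.60% of all 27305 genes with a window. Within the 47, the 8 genes were picked by sequence alone. The 47 were themselves chosen with earlier results of these data known, so these shares describe the list and are no independent test. A match describes the letters of the window and is no evidence of binding.

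What these 8 members share is the pattern of the box, not the bases around it. The stretches around the boxes are shown with the box in capitals, each written 5′ to 3′ on the strand of its gene. They lie at chr6:43171209-43171268 on the plus strand for SRF, chr17:81512874-81512903 on the minus strand for ACTG1, chr2:105399091-105399120 and chr2:105438575-105438644 on the minus strand for FHL2, chrX:154374689-154374758 on the minus strand for FLNA, chr14:68977698-68977767 on the minus strand for ACTN1, chr19:16067335-16067404 on the plus strand for TPM4, chr19:1026489-1026558 on the plus strand for CNN2 and chrX:136196911-136196940 on the plus strand for FHL1.
SRF: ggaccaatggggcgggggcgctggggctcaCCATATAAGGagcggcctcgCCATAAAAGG
ACTG1: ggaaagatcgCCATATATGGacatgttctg
FHL2 start 1: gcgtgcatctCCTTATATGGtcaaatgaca
FHL2 start 2: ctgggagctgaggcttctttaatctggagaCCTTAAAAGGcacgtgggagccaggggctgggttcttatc
FLNA: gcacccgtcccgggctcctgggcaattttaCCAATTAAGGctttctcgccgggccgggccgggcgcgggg
ACTN1: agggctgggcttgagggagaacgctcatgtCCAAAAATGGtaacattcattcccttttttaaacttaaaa
TPM4: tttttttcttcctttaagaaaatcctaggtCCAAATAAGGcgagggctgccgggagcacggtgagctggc
CNN2: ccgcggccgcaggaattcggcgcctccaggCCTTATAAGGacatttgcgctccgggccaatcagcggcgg
FHL1: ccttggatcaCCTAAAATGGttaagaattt

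SRF carries 2 boxes, whose first bases lie at -30 and -10 from its annotated start. Boxes of SRF, CNN2, FLNA and the second FHL2 start lie upstream of the gene as GENCODE 29 annotates it. Those of ACTN1 and TPM4 fall in an intron, and those of ACTG1, FHL1 and the first FHL2 start fall in an exon of a longer annotated transcript. Of the 8 members with a box, 7 were called higher with CuB and 1, FHL1, was called lower, with a median log2 difference of 1.34. Of the 35 members with a window and no box, 33 were tested, 19 were called higher and 2 lower, and their median was 0.45. Over all tested genes 22.9% were called higher and 15.6% lower. Several of the largest rises, TUFT1, TPM1, PDLIM7, ZYX and VCL, had no box in their windows, which says nothing of sequence further away.

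SRF itself was higher with CuB. Its gene (ENSG00000112658, chromosome 6, 43171299 to 43181507, plus strand) stood at 13.0, 19.6 and 12.4 FPKM in DMSO replicates 1 to 3 and at 32.0, 40.3 and 44.9 in CuB. The lowest CuB library was above the highest DMSO library, replicate 2. The means were 14.98 ± 4.0 and 39.0 ± 6.53 FPKM (SD, n = 3 each), 2.61-fold, with a log2 difference of 1.34 (95% interval 0.88 to 1.80, adjusted p = 0.00218).

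The 2 cytoplasmic actins rose and the smooth muscle actin ACTA2 fell. ACTG1, gamma actin (ENSG00000184009, chromosome 17, 81509971 to 81523847, minus strand), had 549, 590.1 and 507 FPKM in DMSO and 2447, 2409 and 2384 in CuB. ACTB, beta actin (ENSG00000075624, chromosome 7, 5527147 to 5563784, minus strand), had 494, 531 and 466 in DMSO and 1422, 1384 and 1440.2 in CuB. For both genes the groups were far apart compared with the spread inside them. ACTG1 rose 4.40-fold (log2 difference 2.14, 95% interval 1.98 to 2.30, adjusted p = 3.91e-06) and ACTB 2.85-fold (1.51, 1.36 to 1.66, adjusted p = 1.18e-05). Together they made up 0.430% ± 0.0296 of the summed FPKM of a DMSO library and 1.46% ± 0.00612 of a CuB library (SD, n = 3). All 47 members summed to 1.19% ± 0.0722 and 2.58% ± 0.0542, so the actins account for most of the gain in that sum. Of 50-base stretches in the longest coding transcript, 10.3% of those of ACTB and 3.58% of those of ACTG1 also occur in other genes, mainly actin pseudogenes.

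ACTA2 (ENSG00000107796, chromosome 10, 88935074 to 88991339, minus strand) was expressed at 1.71, 1.72 and 1.57 FPKM in DMSO and 0.783, 1.02 and 0.607 in CuB. Every CuB value was below every DMSO value, at a far lower level than that of the cytoplasmic actins. ACTA2 reached the filter only through DMSO (mean 1.67 FPKM, beside 0.802 in CuB), so it could count only as lower. The DMSO mean was 2.08 times the CuB mean, and the log2 difference, which the pseudocount makes smaller for so low a gene, was -0.57 (adjusted p = 0.0128). Exons of ACTA2 share 17.3% of their bases with ACTA2-AS1 and 12.8% with FAS on the opposite strand, and, as the libraries carry no strand mark, reads there cannot be assigned to one gene.

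Among crosslinkers and focal contact proteins, 9 of 12 tested members were higher (75.0%, beside 22.9% of all tested genes) and 1 lower (8.33%, beside 15.6%). Their median log2 difference was 1.02. The largest rise was that of FHL2, a LIM-domain protein that binds integrins and SRF (ENSG00000115641, chromosome 2, 105357712 to 105438513, minus strand), from 3.68, 3.57 and 3.59 FPKM to 19.8, 18.7 and 18.4. Its 2 groups did not overlap and differed 5.25-fold (log2 difference 2.11, adjusted p = 5.93e-06). The related FHL1 went the other way, from 4.08, 3.87 and 3.65 FPKM in DMSO to 2.12, 1.31 and 1.46 in CuB, with all CuB libraries below all DMSO libraries. FHL1 (ENSG00000022267, chromosome X, 136146702 to 136211359, plus strand) had a log2 difference of -0.90 (95% interval -1.22 to -0.58, adjusted p = 0.00237), and its DMSO mean was 2.37 times its CuB mean. FHL3 had 6.44, 7.68 and 6.04 in DMSO and 10.4, 8.49 and 10.5 in CuB. Its groups were separate by a narrow margin, and its adjusted p of 0.0183 became 0.0676, 0.0594, 0.0547 and 0.0624 without DMSO replicate 1, DMSO replicate 3, CuB replicate 1 and CuB replicate 3, and 0.0624 with equal fragment totals.

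Other focal contact genes rose by up to 4.20-fold. PDLIM7, an adaptor of the PDZ and LIM family, had 10.8, 15.8 and 9.88 FPKM in DMSO and 46.7, 51.4 and 54.9 in CuB (log2 difference 2.01, adjusted p = 0.000201). ZYX, zyxin, which marks focal contacts and stress fibres under tension, had 23.6, 33.2 and 21.9 in DMSO and 88.9, 104 and 108 in CuB (1.91, adjusted p = 0.000215). In both genes DMSO replicate 2 was the highest control and still lay far below the lowest CuB library. Filamin A (FLNA), which crosslinks filaments into networks, went from 100.4, 132 and 91.3 FPKM to 254, 313 and 336 (1.48, adjusted p = 0.000614). Vinculin (VCL), which couples talin to actin, went from 16.0, 13.8 and 15.7 to 42.8, 42.7 and 39.6 (1.40, adjusted p = 5.29e-05). Neither gene's groups overlapped. PDLIM5 and LIMA1, which crosslinks and stabilises filaments, had smaller log2 differences of 1.03 (adjusted p = 0.000510) and 0.71 (adjusted p = 0.00533). TLN1, talin, which sits between integrins and vinculin, was not called: 49.7, 54.2 and 45.9 FPKM in DMSO and 48.8, 53.9 and 56.1 in CuB overlapped, with a log2 difference of 0.08 (95% interval -0.14 to 0.30, adjusted p = 0.513) that became -0.08 with equal fragment totals.

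The alpha-actinins differed from each other. ACTN1 had 33.5, 42.1 and 31.8 FPKM in DMSO and 66.0, 74.8 and 77.7 in CuB, 2.04-fold (log2 difference 1.01, adjusted p = 0.00105). The more abundant ACTN4 had 153, 191 and 142 in DMSO and 179, 218 and 231 in CuB. Here DMSO replicate 2 was above CuB replicate 1, so the groups overlapped, and the difference of 0.37 was not called (adjusted p = 0.0736). It passed without DMSO replicate 2 (adjusted p = 0.0171), without CuB replicate 1 (0.0394) and after a correction for GC content (0.000515). FLNC, the muscle filamin, was read by 3 fragments in all DMSO libraries and 10 in all CuB libraries. That ratio, 3.59 with an exact 95% interval of 0.923 to 20.3 for counting error, spans 1.

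Of the 4 tropomyosins, 3 rose (75.0%, beside 22.9% of all tested genes). TPM1 (ENSG00000140416, chromosome 15, 63042632 to 63071915, plus strand) went from 3.21, 3.18 and 3.54 FPKM to 20.0, 19.0 and 19.1, a 5.85-fold difference (log2 difference 2.24, 95% interval 2.06 to 2.43, adjusted p = 5.73e-06). TPM4, from 51.4, 46.7 and 51.1 to 142, 124 and 117, remained far more abundant (1.34, adjusted p = 9.06e-05). TPM3, with 69.7, 64.4 and 71.6 in DMSO, reached 103, 96.1 and 97.3 (0.52, adjusted p = 0.00195). In each of these 3 genes the CuB libraries lay above the DMSO libraries. The fourth, TPM2, overlapped: 35.4, 50.3 and 35.2 FPKM in DMSO and 34.5, 41.7 and 47.4 in CuB gave a difference of 0.04 (95% interval -0.37 to 0.45, adjusted p = 0.876), whose sign turned under equal fragment totals and without DMSO replicate 1, DMSO replicate 3 or CuB replicate 3. Mean TPM levels in DMSO thus ran from TPM1 at 3.31 ± 0.197 through TPM2 at 40.3 ± 8.65 and TPM4 at 49.7 ± 2.60 to TPM3 at 68.6 ± 3.72 FPKM, and in CuB from TPM1 at 19.4 ± 0.532 through TPM2 at 41.2 ± 6.49 and TPM3 at 98.9 ± 3.84 to TPM4 at 128 ± 12.8 (SD, n = 3). In that order TPM2 and TPM4 overlapped in DMSO, and no neighbours overlapped in CuB. The order is that of FPKM, whose gene lengths exceed the longest coding transcripts unevenly. They were 12876 against 3957 bases for TPM1 and 3248 against 1392 for TPM2. Exons of TPM1 share 16.1% of their bases with TPM1-AS on the opposite strand, and 23.1% of the 50-base stretches of TPM4 occur in another gene.

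The 2 heavy chains of non-muscle myosin II moved in opposite directions. MYH9, myosin IIA (ENSG00000100345, chromosome 22, 36281277 to 36388067, minus strand), had 38.5, 44.9 and 33.5 FPKM in DMSO and 85.9, 108 and 112 in CuB. MYH10, myosin IIB (ENSG00000133026, chromosome 17, 8474205 to 8630761, minus strand), had 57.3, 52.4 and 57.4 in DMSO and 29.6, 30.2 and 30.6 in CuB. Neither gene's groups overlapped: MYH9 was the lower of the pair in every DMSO library and the higher in every CuB library. The log2 difference was 1.36 for MYH9 (95% interval 1.03 to 1.70, adjusted p = 0.000510) and -0.86 for MYH10 (-1.04 to -0.69, adjusted p = 0.000215).

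The regulatory light chains, which set the activity of these motors, changed less. MYL12A had 25.0, 24.4 and 25.3 FPKM in DMSO and 37.9, 33.1 and 32.5 in CuB, with no overlap (log2 difference 0.45, adjusted p = 0.00614), and was not called after quantile normalization (adjusted p = 0.0697). MYL9 had 3.69, 3.88 and 3.18 in DMSO and 4.45, 5.67 and 5.62 in CuB (0.44, adjusted p = 0.0222), a call lost without DMSO replicate 1 (0.0612), DMSO replicate 3 (0.0699), CuB replicate 2 (0.0914) or CuB replicate 3 (0.0746), and also with no filter (0.0569), rescaling to the same sum (0.0521) and equal fragment totals (0.0778). MYL12B overlapped, with 64.2, 53.7 and 72.7 in DMSO and 81.7, 66.0 and 62.1 in CuB (0.14, adjusted p = 0.488). MYL12A and MYL12B each share about 9.4% of their 50-base stretches with other genes, mainly each other.

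Transgelins, calponins and caldesmon bind along actin filaments and are best known from smooth muscle. In these cells the forms of non-muscle cells were abundant and 3 of 5 tested members rose (60.0%, beside 22.9% of all tested genes). TAGLN2 had 151, 184 and 139.7 FPKM in DMSO and 224, 232 and 252 in CuB (log2 difference 0.58, adjusted p = 0.00715). CNN2 went from 14.2, 14.3 and 11.3 to 31.2, 34.5 and 36.5 (1.30, adjusted p = 0.000260), and CNN3 from 42.2, 38.6 and 40.9 to 68.7, 65.1 and 72.2 (0.74, adjusted p = 0.000499). In all 3 the CuB libraries lay above the DMSO libraries. The smooth muscle forms were low: TAGLN had 1.60, 2.09 and 1.16 FPKM in DMSO and 1.82, 2.44 and 2.03 in CuB, which overlapped (0.25, adjusted p = 0.247). CNN1 had 5 fragments over the DMSO libraries and 24 over the CuB libraries, a ratio of 5.16 (exact 95% interval for counting error 1.93 to 17.3). CNN1 was below the filter, and its adjusted p without a filter was 0.0640. Caldesmon (CALD1) overlapped, at 19.5, 16.0 and 20.2 FPKM in DMSO and 19.5, 17.2 and 17.0 in CuB, with a difference of -0.05 (95% interval -0.31 to 0.22, adjusted p = 0.767).

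Genes for proteins that bind actin monomers or take filaments apart rose in 4 of 6 cases (66.7%, beside 22.9% of all tested genes). Most of these rises were less than 1.5-fold. The exception was WDR1, which works with cofilin in disassembly and went from 34.1, 38.5 and 33.6 FPKM to 89.7, 96.7 and 95.4 (2.65-fold, log2 difference 1.38, adjusted p = 4.43e-05). Profilin (PFN1), which hands monomers to growing ends, had 251, 298 and 234 in DMSO and 361, 376 and 389.5 in CuB (0.53, adjusted p = 0.00575). CAP1, which recycles monomers from cofilin, had 52.1, 54.2 and 51.5 in DMSO and 73.3, 76.3 and 77.6 in CuB (0.52, adjusted p = 0.00135). In these 3 genes no CuB library fell within the DMSO range. Exons of CAP1 share 31.2% of their bases with PPT1 on the opposite strand.

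The cofilin family itself changed little. CFL1, cofilin of non-muscle cells, had 111, 146 and 107 FPKM in DMSO and 148, 164 and 178 in CuB. CuB replicate 1 and DMSO replicate 2 nearly touched, and the call (log2 difference 0.44, adjusted p = 0.0390) was lost without DMSO replicate 1 (0.126), DMSO replicate 3 (0.112), CuB replicate 2 (0.109) or CuB replicate 3 (0.114). It was also lost with no filter (0.106), rescaling to the same sum (0.0901), quantile normalization (0.144), equal fragment totals (0.155) and limma without trend (0.0503). CFL2 overlapped, at 6.70, 5.71 and 7.85 in DMSO and 6.60, 4.73 and 4.91 in CuB (-0.28, adjusted p = 0.185), and passed after the GC correction (0.0178). DSTN, destrin, overlapped too, at 76.0, 58.4 and 78.1 in DMSO and 88.2, 70.3 and 66.5 in CuB (0.08, 95% interval -0.27 to 0.44, adjusted p = 0.694).

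The ARP2/3 complex, which branches filaments, had 2 of 7 tested subunits called higher (28.6%) and 0 lower, and its share of higher calls was near the 22.9% of all tested genes. Its median log2 difference was 0.22. ACTR3, one of the actin-related subunits, had 13.7, 10.9 and 14.3 FPKM in DMSO and 23.8, 20.7 and 18.9 in CuB (0.66, adjusted p = 0.00748). ARPC2, part of the core of the complex, had 27.5, 26.1 and 27.5 in DMSO and 39.4, 34.6 and 34.1 in CuB (0.40, adjusted p = 0.00968). Both had separate groups, and ARPC2 lost its call with quantile normalization (0.162) and equal fragment totals (0.0525), which left 1 subunit. The partner ACTR2 overlapped, at 122, 108 and 128 in DMSO and 125, 114 and 104 in CuB (-0.06, 95% interval -0.30 to 0.17, adjusted p = 0.650). ARPC1A (0.04, adjusted p = 0.797), ARPC3 (-0.17, adjusted p = 0.428), ARPC4 (0.36, adjusted p = 0.109) and ARPC5 (0.22, adjusted p = 0.119) were not called either. With the GC correction 4 subunits were called higher, ARPC4 (0.0248) and ARPC5 (0.00673) among them, and ARPC4 was also called without DMSO replicate 2 (0.0103). ARPC1B had a mean of 1.08 ± 0.280 FPKM in DMSO and 0.888 ± 0.0655 in CuB (SD, n = 3) and was below the filter. Of the 50-base stretches of ARPC1A and ARPC1B, 76.0% and 72.3% also lie in other genes, chiefly the readthrough gene AC004922.1, so their values depend on how shared reads were counted, which is not given in the sources used here.

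TUFT1, first described as a protein of tooth enamel, had the largest log2 difference of the 44. The gene (ENSG00000143367, chromosome 1, 151540305 to 151583583, plus strand) went from 2.92, 2.91 and 2.33 FPKM in DMSO to 19.9, 20.6 and 19.9 in CuB. The groups were 7.39-fold apart with little spread in CuB (log2 difference 2.51, 95% interval 2.29 to 2.73, adjusted p = 7.06e-06).

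Ratios between related members within a library do not depend on the scaling of libraries. For 6 such pairs the log2 ratio was compared by an exact two-sided permutation test, in which 3 against 3 cannot give less than p = 0.1, so none could pass. The ratio of ACTG1 to ACTB was 1.11, 1.11 and 1.09 in DMSO and 1.72, 1.74 and 1.66 in CuB. The ratio was thus higher in every CuB library (log2 difference 0.63, exact p = 0.1, adjusted over the 6 pairs p = 0.2). Its level depends on the gene lengths used, 3519 bases for ACTB and 2993 for ACTG1. By fragments, ACTB exceeded ACTG1 in every DMSO library (26681, 30566 and 25581 against 25205, 28917 and 23696). Which actin was the more abundant in DMSO is therefore not settled. MYH10 to MYH9 was 1.49, 1.17 and 1.71 in DMSO and 0.345, 0.281 and 0.274 in CuB, a 4.82-fold shift towards MYH9 (-2.27, exact p = 0.1, adjusted p = 0.2). ACTN4 to ACTN1 went from 4.57, 4.53 and 4.47 to 2.71, 2.91 and 2.97 (-0.66, exact p = 0.1, adjusted p = 0.2). In these 3 pairs the groups did not overlap. They overlapped for CFL2 to CFL1, 0.0578 ± 0.0175 in DMSO and 0.0336 ± 0.00948 in CuB (exact p = 0.2), TAGLN2 to TAGLN, 101 ± 17.0 and 114.0 ± 16.3 (exact p = 0.2), and ARPC1B to ARPC1A, 0.0903 ± 0.0321 and 0.0712 ± 0.0143 (exact p = 0.4), each SD with n = 3. A ratio shows unequal change of its genes and not which one moved.

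**Figure D3:**
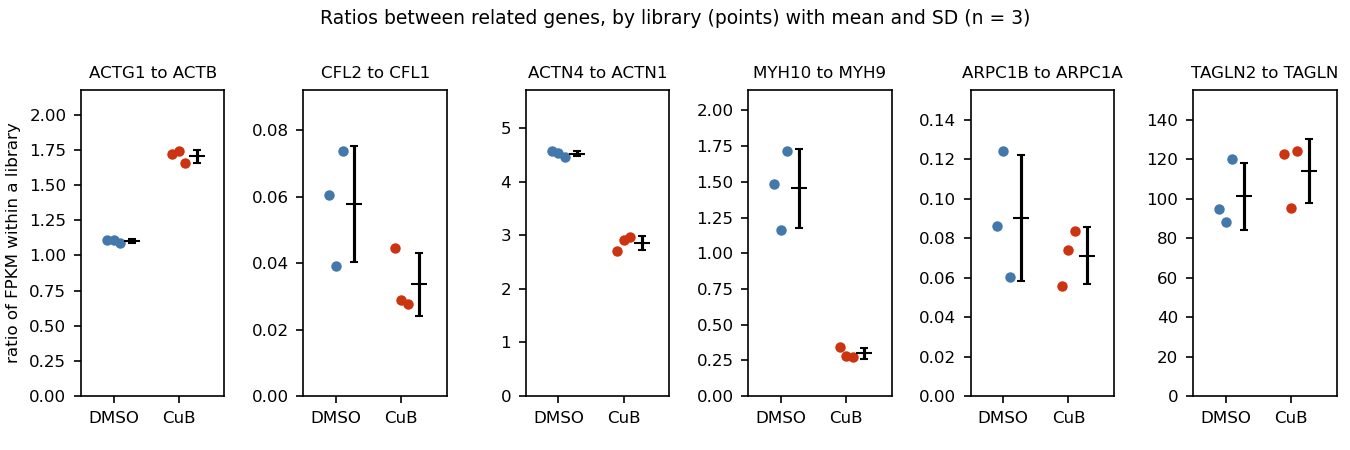
Ratio of FPKM within a library for 6 pairs of related members, 1 panel each with its own axis from 0, with 3 DMSO and 3 CuB points, their mean and SD. The groups are separate for ACTG1 to ACTB, ACTN4 to ACTN1 and MYH10 to MYH9, and overlap for the other pairs.

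Further genes of the same pathways were read from further lists. Of the SRF cofactors and their regulators, 2 of 6 tested genes were called higher (33.3%, beside 22.9% of all tested genes) and 1 lower (16.7%, beside 15.6%). Their median log2 difference was 0.18. ELK4, a TCF partner of SRF, went from 11.7, 8.94 and 12.3 FPKM to 19.8, 18.2 and 17.0 (0.70, adjusted p = 0.00592), with separate groups. The 2 MRTF genes had small differences of unlike sign. MRTFA had 3.34, 3.83 and 2.33 in DMSO and 4.56, 4.81 and 5.10 in CuB (0.50, adjusted p = 0.0335), and MRTFB 3.19, 2.69 and 3.44 in DMSO and 2.37, 2.30 and 1.96 in CuB (-0.35, adjusted p = 0.0433). Neither call held when DMSO replicate 1, DMSO replicate 3 or any one CuB replicate was left out, with adjusted p from 0.0584 to 0.0956 for MRTFA and from 0.0636 to 0.131 for MRTFB. The MRTFA call was also lost with no filter (0.0872), rescaling to the same sum (0.0626) and equal fragment totals (0.0919), and that of MRTFB with no filter (0.101), quantile normalization (0.0605) and the replicate block (0.0906). MYOCD, the cofactor of muscle, was at 0 in all libraries. MICAL2, an enzyme that oxidises actin and acts on MRTF, was below the filter and was singled out after its values were seen: it had 154 fragments over the DMSO libraries and 1418 over the CuB libraries, a ratio of 9.91 (exact 95% interval for counting error 8.38 to 11.8), and without a filter its adjusted p was 0.00177.

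Immediate early genes of the TCF type were all higher, 11 of 11 (median 3.29), beside 22.9% of all tested genes. EGR2 and EGR4 (mean 0.0357 FPKM in DMSO and 10.8 in CuB) reached the filter only through CuB, so they could count only as higher. EGR2, a zinc finger transcription factor, had 0.954, 0.646 and 0.781 FPKM in DMSO and 71.4, 73.2 and 71.1 in CuB (5.35, adjusted p = 6.62e-07), the widest gap of the list on the log2 scale used. EGR1 (4.19), NR4A1 (3.82) and FOSB (3.73) followed. Of 17 listed targets of the MRTF type other than the 47, 9 were tested, and 7 were called higher and 0 lower (median 1.06). Over all tested genes 22.9% were higher. ANKRD1 reached the filter only through CuB, so it could count only as higher. Of the 8 not tested, LMOD1 (mean 0.440 FPKM in DMSO and 0.213 in CuB) and MYH11 (0.383 and 0.254) had every CuB value below the DMSO values. ACTG2 (0.0504 and 0.144) had every CuB value above them. SDC4, a syndecan of focal contacts, went from 29.2, 35.8 and 35.7 to 160.2, 157 and 156 (2.21, adjusted p = 1.21e-05). TES, a LIM protein that binds zyxin, went from 7.43, 6.32 and 8.07 to 29.3, 25.4 and 23.0 (1.70, adjusted p = 0.000110). In both, the groups were separate. ITGA5, the fibronectin receptor subunit (1.31, adjusted p = 0.000211), and ANKRD1, an ankyrin repeat protein at a mean of 0.141 ± 0.0849 FPKM in DMSO and 3.23 ± 0.511 in CuB (SD, n = 3, adjusted p = 0.000119), were higher as well.

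WASP and WAVE factors switch on ARP2/3, and their median log2 difference was -0.10. Of 13 tested, 4 were called higher (30.8%, beside 22.9% of all tested genes) and 2 lower (15.4%, beside 15.6%). Those were ABI1 (0.60, adjusted p = 0.00507), WASL (0.52, adjusted p = 0.0193), WIPF1 (-0.66, adjusted p = 0.000747) and CYFIP2 (-0.61, adjusted p = 0.00163) among the largest. The higher count was 2 without DMSO replicate 1 or CuB replicate 2, where WASL had an adjusted p of 0.0531 and 0.0629, and WASL was also not called without CuB replicate 1 (0.0528), with quantile normalization (0.0976) or with equal fragment totals (0.0611). With equal fragment totals 2 were higher and 4 lower.

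Capping, severing and monomer-buffering genes had 1 of 13 called higher (7.69%, beside 22.9% of all tested genes) and 2 lower (15.4%, beside 15.6%). Their median was 0.21. GSN, gelsolin, which severs and caps filaments, went from 53.2, 69.7 and 50.6 FPKM to 13.4, 14.1 and 16.1 (-1.91, 95% interval -2.24 to -1.59, adjusted p = 0.000110). TMSB4X, a thymosin that sequesters monomers, went from 19.7, 17.8 and 17.4 to 43.0, 36.4 and 36.4 (1.03, adjusted p = 0.000345), and SVIL, supervillin, from 21.6, 22.1 and 21.4 to 12.5, 13.7 and 14.2 (-0.65, adjusted p = 0.00104). All 3 had groups that did not overlap. The counts of this list were 4 higher and 4 lower without DMSO replicate 2, and 6 and 4 with the GC correction. Of 23 other tested bundling and focal contact genes, 10 were higher (43.5%, beside 22.9% of all tested genes) and 3 lower (13.0%, beside 15.6%). Their median was 0.27. Rises named by the rule were the adaptor BCAR1 (1.43, adjusted p = 0.00321), VASP, which speeds filament elongation (1.43, adjusted p = 0.000840), and EZR, ezrin, which ties filaments to the membrane (1.26, adjusted p = 3.42e-05). The lower count of this list was 1 without DMSO replicate 1, DMSO replicate 3 or CuB replicate 3.

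**Figure D4:**
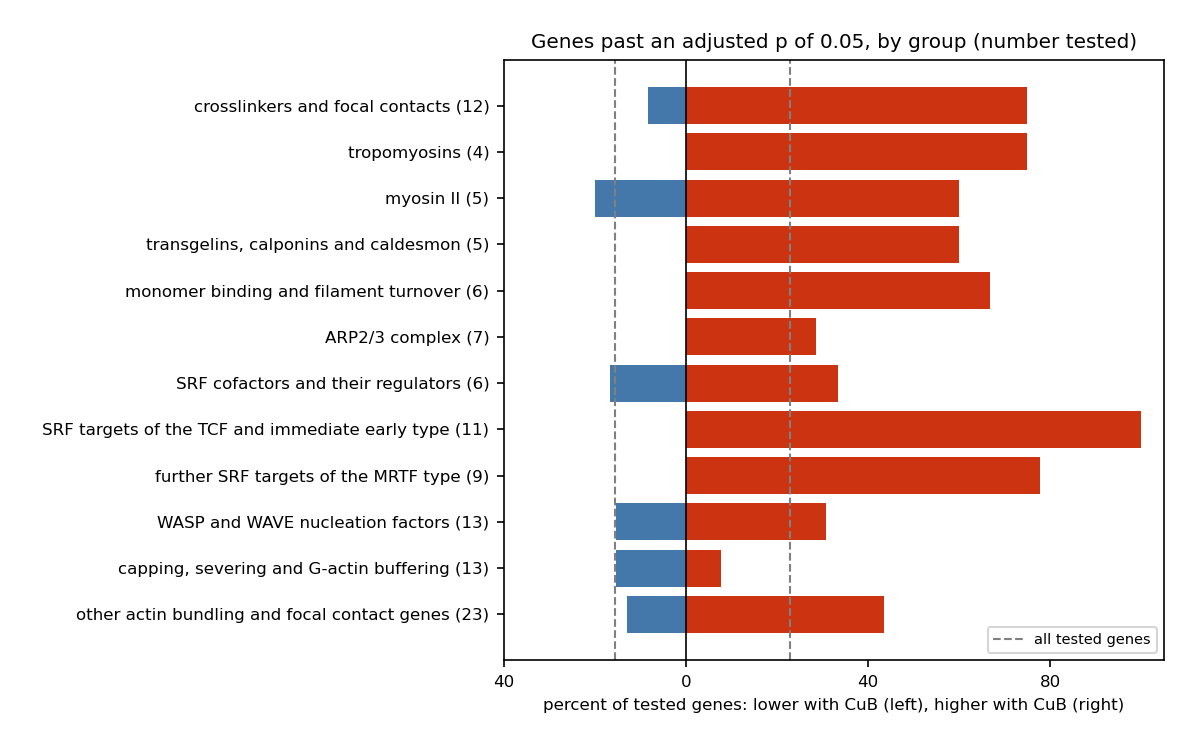
Share of tested genes called higher and lower with CuB in each subgroup with 4 or more tested members and each further list described here (number tested in brackets), with the share over all tested genes (22.9% higher, 15.6% lower) as dashed lines. The ARP2/3 complex (28.6% higher) and the WASP and WAVE list (30.8% higher) lie near the dashed line for higher genes, and the immediate early list (11 of 11) reaches the right end.

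Of the 31 calls among members, 26 passed in each of the 20 alternative settings that tested the gene. The other 5 were FHL3, MYL9, MYL12A, CFL1 and ARPC2. No called member changed direction in any setting.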

How the data were processed

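The 3 DMSO and 3 CuB libraries were polyadenylated RNA of A375 cells. Per the labels' protocols, each used 1 µg of RNA and a TruSeq kit, which keeps no strand information. The authors deposited FPKM for 58735 genes, and the submitters' processing notes name build GRCh38. For aligner, read counter and scaling, the entry is: not given in the sources used here. Values convert back to whole fragments within 0.01 for 100% of values in each library, through the gene lengths in the table. The library size implied by FPKM was 1.03 to 1.04 times the fragment total in DMSO and 0.914 to 0.927 times in CuB, so FPKM as deposited were not scaled to fragment totals. All 58735 identifiers and coordinates equal those of GENCODE 29. Columns were assigned by their names, with 0 sample columns unused.

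Genes whose mean reached 1 FPKM were tested as log2(FPKM + 1) in R 4.3.3 with limma 3.58.1 (2 groups, no replicate block, intensity trend, 4 residual degrees of freedom), with Benjamini-Hochberg adjustment over all tested genes and a threshold of 0.05. Log2 differences, and the count of at least 2-fold calls, use log2(FPKM + 1), where the pseudocount shrinks changes of low genes. A fold printed for a single gene is the ratio of its mean FPKM. Ratios within a library were compared by exact permutation tests in Python 3.11.15. Intervals of fragment ratios cover only counting error at 95%. They treat pooled fragments as independent, which PCR reads without molecular identifiers are not, and leave out differences between replicates. They are therefore likely too narrow.

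All 47 members were named, with the 4 largest changes past the threshold from each further list, or the 2 most abundant ones if fewer than 2 passed. MICAL2 was added with its values known. Some results of the further lists are not reported here. The members, lists, tests and alternatives were chosen with earlier results of these data known. Alternatives were no filter, a minimum mean of 5 FPKM, pseudocounts of 0.1 and 0.5, rescaling to the same sum, median of ratios, quantile normalization, equal fragment totals, a GC correction (lowess, span 0.3) with and without a replicate block, limma without trend or with robust hyperparameters, limma-voom on recovered fragments, a replicate block, and each library left out. On data simulated for CuB against DMSO, in 10 runs of 13181.5 genes on average with 200 changed, the fit recovered 29.0% of changes of 1.5-fold, 86.0% of 2-fold and 98.2% of 4-fold, and 6.96% of calls were false. The simulated libraries had 1 fixed dispersion (0.012), were scaled to their own fragment totals and had no deviation along GC content. The measured libraries differ in these points and had 5118 genes called, so the simulated shares need not hold for them.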

Additional observations from a re-analysis of the deposited data

How the results depend on the processing

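The number of members called higher, 28, ranged from 24 to 31 across the alternatives. The number lower fell from 3 to 1 with a minimum mean of 5 FPKM, where ACTA2 and FHL1 were not tested. The members' median of 0.52 became 0.48 with no filter, 0.42 rescaled to the same sum, 0.37 with quantile normalization and 0.36 with equal fragment totals, and lay between 0.48 and 0.56 with each library left out. Over all genes, 3046 higher became 2021 with equal fragment totals and 4596 with the GC correction, and 1965 (without CuB replicate 2) to 3443 with a library left out. The 2072 lower became 985 with a minimum mean of 5 FPKM, 3128 with equal fragment totals, 3184 with the GC correction, and 1297 (without CuB replicate 2) to 2312 with a library left out, with 1359 without DMSO replicate 1. The cause was not tested, except that fewer genes are tested under the stricter minimum.

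Differences that were not called changed sign for 7 members. Rescaled to the same sum, with quantile normalization and with equal fragment totals, respectively, TLN1 was at -0.019, -0.14 and -0.080, TPM2 at -0.061, -0.20 and -0.12, DSTN at -0.020, -0.16 and -0.082, and ARPC1A at -0.051, -0.10 and -0.11. MYL12B was at -0.084 with quantile normalization and -0.027 with equal totals. With each library left out, TPM2 lay between -0.066 and 0.21, DSTN between -0.049 and 0.16, ARPC1A between -0.055 and 0.12, CALD1 between -0.15 and 0.015, and ACTR2 between -0.13 and 0.0010.

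Replicate numbers are shared by the groups, but same-numbered libraries did not all deviate together (correlations 0.269, 0.118 and -0.357). As the deviations also followed GC content, these values cannot decide whether same-numbered cultures were paired, and no label states it. With the replicate block 28 members were called higher and 3 lower, and MRTFB was not called (adjusted p = 0.0906). Depth limits FLNC and CNN1, which were read by few fragments.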
